A study of Mus musculus with 4 samples.

Results

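The variable segments of the T cell receptor beta chain were taken as every gene whose GENCODE symbol begins with Trbv followed by a digit, which gave 35 of the 50600 genes in each file. Of these, 22 carry the biotype TR_V_gene and 13 the biotype TR_V_pseudogene. All of them lie on mouse chromosome 6 of mm10, within 667.2 kb. The samples were 4 RNA-seq libraries of primary T cells from C57BL/6NJ mice, labelled as biological replicates of a single group, with no genotype change and no treatment in the labels. The file headers describe the cells as mmTh0, activated, at 48h. The labels give the same donor entry for the 4 libraries and a CD4+ T cell differentiation protocol, so p-values measure the spread between these libraries, which may in part be technical. The title speaks of total RNA, whereas the protocol attached to the libraries carries polyA+ RNA in its name.

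A T cell receptor beta chain is built when a lymphocyte joins a V segment to a D segment and a J segment in its own DNA, after which the joined exon is spliced to a constant exon, Trbc1 or Trbc2. Each mature T cell therefore mostly transcribes the V segment it has joined, and in a mixed population the RNA of a segment reflects both how many cells carry it and how much RNA each cell makes. These cannot be told apart in bulk libraries. A functional V segment has a short first exon that encodes the leader peptide and a longer exon that encodes the variable domain. That exon ends, shortly before the joining site, in a cysteine codon that opens the third complementarity-determining region, the loop that contacts peptide. The bases beyond that cysteine are commonly trimmed when the segment is joined.

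The 3′ ends of the segments that carried most or least of the signal show that joining edge. They were read from the GENCODE M21 transcripts (GRCm38) and are given 5′ to 3′ on the coding strand. Each is the last 45 bases of the M21 model, which for Trbv21 and Trbv31 ends 2 bases short of the segment in the files. Capitals mark the first in-frame cysteine codon within the last 24 bases and any in-frame stop codon. The first 6 below had the highest shares of the Trbv level.
Trbv13-2, chr6:41121788-41121832, plus strand: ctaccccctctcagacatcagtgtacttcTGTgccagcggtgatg
Trbv31, chr6:41557693-41557737, minus strand: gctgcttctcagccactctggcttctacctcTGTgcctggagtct
Trbv1, chr6:40891841-40891885, plus strand: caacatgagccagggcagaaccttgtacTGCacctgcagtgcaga
Trbv13-1, chr6:41116424-41116468, plus strand: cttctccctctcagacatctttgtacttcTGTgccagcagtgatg
Trbv16, chr6:41152186-41152230, plus strand: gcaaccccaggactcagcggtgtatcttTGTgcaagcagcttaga
Trbv3, chr6:41048784-41048828, plus strand: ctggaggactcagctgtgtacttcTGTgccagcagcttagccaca

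The next 3 are the TR_V_gene members with the lowest shares.
Trbv23, chr6:41216482-41216526, plus strand: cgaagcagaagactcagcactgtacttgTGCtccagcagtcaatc
Trbv30, chr6:41281946-41281990, plus strand: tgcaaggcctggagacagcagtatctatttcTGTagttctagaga
Trbv21, chr6:41202998-41203042, plus strand: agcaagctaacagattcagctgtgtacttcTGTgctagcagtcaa

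The last 3 set the pseudogene with most reads, Trbv24, beside Trbv26 and Trbv4. Trbv26 was the closest to Trbv24 among the segments of at least 280 bases (75.7% identity over the last 280 bases). Trbv4 is a TR_V_gene that also holds an in-frame stop.
Trbv24, chr6:41218513-41218557, plus strand: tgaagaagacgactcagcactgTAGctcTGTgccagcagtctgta
Trbv26, chr6:41227949-41227993, plus strand: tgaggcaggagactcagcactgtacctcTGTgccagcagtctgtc
Trbv4, chr6:41059842-41059886, plus strand: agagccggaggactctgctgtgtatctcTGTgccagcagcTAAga

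All 22 TR_V_gene members had a cysteine codon in this position. The stop of Trbv24 lies before the cysteine codon, with its first base 23 bases from the segment's end. That of Trbv4 lies after the cysteine codon, 5 bases from the end, in the stretch that joining commonly trims. Trbv4 was the only TR_V_gene with an in-frame stop when read from its annotated coding start.

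The libraries held 45110199 to 127755788 counted read pairs, a 2.83-fold range with replicate 3 the deepest. A count of 3, used as the limit that a count of 0 allows, corresponds to 0.0235 CPM (counts scaled to a total of 1000000) in replicate 3 and to 0.0665 CPM in replicate 2, the shallowest. All 10 T cell markers were above 1 CPM, against 48% of all genes tested. The highest were Cd5 at 892 ± 34.1 CPM and Lck at 637 ± 9.53 CPM (SD, n = 4). The helper T cell markers Cd4 and Zbtb7b stood at 931 ± 9.79 and 147 ± 5.25 CPM, while the CD8 chains Cd8b1 and Cd8a stood at 9.62 ± 0.749 and 0.279 ± 0.143 CPM. Summed markers of 3 other kinds of cell were low, at 1.35 to 2.34 CPM for 5 gamma-delta T cell genes (led by Sox13 and Trdc), 1.79 to 2.64 CPM for 4 natural killer genes (Eomes and Klrb1c) and 4.50 to 5.89 CPM for 5 myeloid genes (Cd68 and Adgre1). Of these 14 genes, Cd68 at 2.69, Adgre1 at 2.60, Eomes at 2.34 and Sox13 at 1.51 CPM were above 1 CPM, and Lyz2, Klra8 and Tcrg-C4 had no count in any library. The part of such cells in the Trbv values was not tested.

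Summed over the 35 members, the Trbv segments received 9810, 8055, 20410 and 8578 read pairs in replicates 1 to 4. That is 172, 179, 160 and 161 CPM, so the family's total differed little between libraries (168 ± 9.17 CPM, SD, n = 4). Of the 35 members, 27 had at least 1 count in any library and could be tested. By edgeR's quasi-likelihood test against 1 CPM, with Benjamini-Hochberg adjustment over the 23365 genes tested, 19 of the 27 were above 1 CPM, 7 were below and 1 was undecided. Over all genes tested, 48% were above and 48.5% below. The largest adjusted p among the 19 was 8.51e-09, for Trbv17, and among the 7 below it was 0.0012, for Trbv30. The size of these values depended on the method. With limma on log2(CPM + 0.1) the adjusted p was 0.00116 for Trbv17 and 0.00994 for Trbv30, with the same calls.

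The calls fell along the annotation. All 19 segments above 1 CPM are TR_V_gene members. The 7 below were 5 pseudogenes (Trbv6, Trbv12-3, Trbv22, Trbv24 and Trbv25) and 2 TR_V_gene members (Trbv21 and Trbv30). Trbv23 was undecided, at 1.65, 1.02, 0.885 and 0.843 CPM in replicates 1 to 4 (adjusted p for a level above 1 CPM 0.52, edgeR quasi-likelihood test). The 8 without a single count, Trbv7, Trbv8, Trbv9, Trbv10, Trbv11, Trbv18, Trbv27 and Trbv28, are all pseudogenes.

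**Figure D1:**
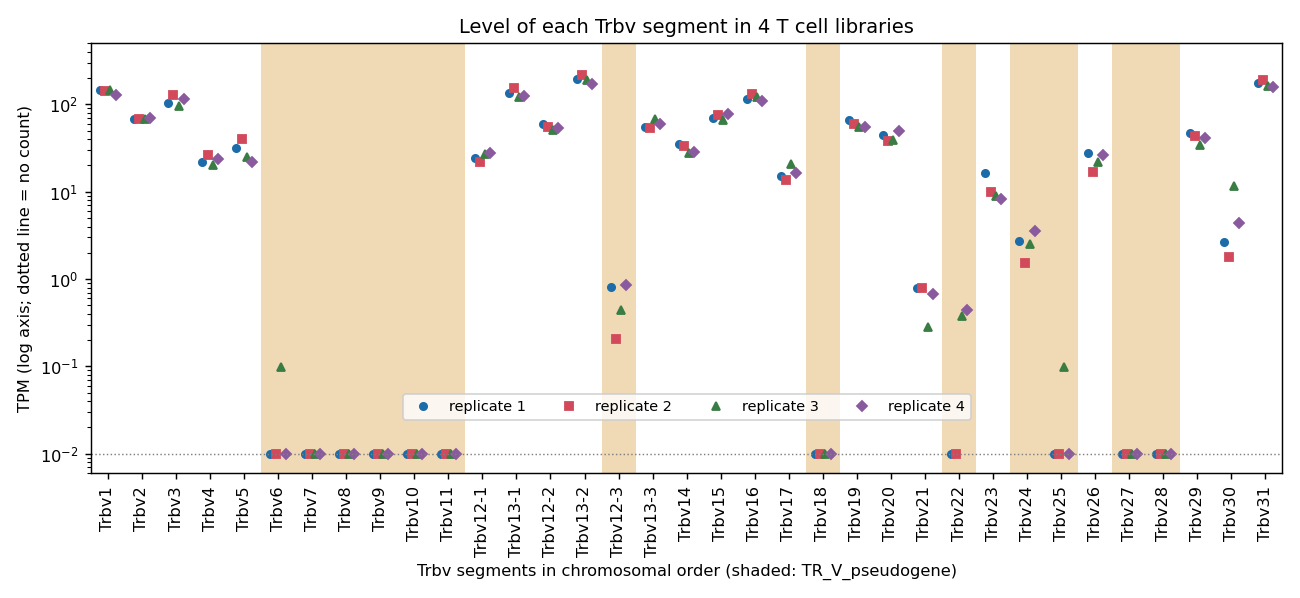
Level of the 35 Trbv segments in TPM (counts per exon length, scaled to a common total; log axis) in each of the 4 libraries, in chromosomal order, with pseudogenes shaded. Points on the dotted line had no count, and no TR_V_gene lies there in any library.

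The number of exons also went with the calls, but it nearly repeats the biotype. Every single-exon member is a pseudogene, and Trbv12-3 and Trbv24 are the only pseudogenes with 2 exons. In the files' annotation 24 members have 2 exons and 11 have a single exon, without a separate leader exon. The 11 single-exon members together received 8 read pairs over the 4 libraries, out of 46853 for the family, and 8 of them received none. Trbv22 accounted for most of these, with 0, 0, 4 and 2 pairs in replicates 1 to 4, and Trbv6 and Trbv25 for 1 pair each in replicate 3. Every segment above 1 CPM has 2 exons.

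Among the pseudogenes with 2 exons, Trbv24 had 16, 7, 32 and 19 read pairs, or 0.281, 0.155, 0.251 and 0.356 CPM in replicates 1 to 4. It was above the 3-count limit in every library, and its level was the highest of any pseudogene in each. Trbv12-3 had 5, 1, 6 and 5 read pairs. Read from the start codon in its first exon that gave the longest open frame, Trbv12-3 meets a TAA stop 156 bases before its end. The pseudogenes made up 0.243%, 0.114%, 0.253% and 0.351% of the Trbv level per length in replicates 1 to 4. The summed TR_V_gene level exceeded the summed pseudogene level by 8.76 ± 0.67 on the log2(TPM + 0.1) scale (SD, n = 4), in 4 of 4 libraries. An exact sign-flip test, two-sided, gave p = 0.13, the smallest that 4 libraries allow.

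Trbv21 stood apart among the TR_V_gene members, with 5, 4, 4 and 4 read pairs, or 0.0879, 0.0887, 0.0313 and 0.0749 CPM in replicates 1 to 4. These levels lie in the range of the pseudogene Trbv12-3 (0.0222 to 0.0937 CPM). Trbv21 is also the only TR_V_gene whose annotated coding sequence begins in the second exon.

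How much of the Trbv RNA came from each segment was measured as its share of the summed Trbv level per length, that is, read pairs divided by exon length. The order was led by Trbv13-2, with 13.4%, 14.1%, 13.6% and 12.4% in replicates 1 to 4 (13.4% ± 0.678, SD, n = 4). Trbv31 followed with 12.03%, 12.6%, 11.8% and 11.4% (11.96% ± 0.49). Trbv1 took 10.02%, 9.38%, 10.5% and 9.25% (9.78% ± 0.568). The order of these 3 was the same in every library: Trbv13-2 exceeded Trbv31 and Trbv31 exceeded Trbv1 in 4 of 4 libraries. The place of the first 2 depended on the length correction: by read pairs alone Trbv31 had 12.5% ± 0.514 and Trbv13-2 11.4% ± 0.584.

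Behind them came Trbv13-1 (9.30% ± 0.553), Trbv16 (8.34% ± 0.512) and Trbv3 (7.72% ± 0.799). These 3 and Trbv1 changed places between libraries, each neighbour being higher in 3 of 4. A gap followed: Trbv3 exceeded Trbv15 (5.04% ± 0.419) by 2.68 ± 0.584 percentage points, in 4 of 4 libraries. Trbv15, Trbv2 (4.79% ± 0.299), Trbv13-3 (4.15% ± 0.642), Trbv19 (4.11% ± 0.283) and Trbv12-2 (3.82% ± 0.255) formed a run in which the SD ranges of neighbours overlapped. Trbv20 (2.99% ± 0.445), Trbv29 (2.89% ± 0.306), Trbv14 (2.16% ± 0.185) and Trbv5 (2.04% ± 0.449) lay below it. Trbv12-1, Trbv26, Trbv4 and Trbv17 took 1.78%, 1.62%, 1.60% and 1.15% on average, and were the last of the 19 above 1 CPM. These places also depended on the length correction. By read pairs alone Trbv2 had 6.71% ± 0.417 and Trbv19 5.81% ± 0.399, both above Trbv15 at 4.66% ± 0.383. Trbv3, at 8.78% ± 0.901, then passed Trbv13-1 (8.51% ± 0.503) and Trbv16 (8.30% ± 0.518).

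Over the 26 neighbouring pairs in the order per length, the SD ranges overlapped in 19, and the higher segment was higher in 4 of 4 libraries in 8. The 5 most used segments together held 52.6%, 54.8%, 53.5% and 50.1% of the level in replicates 1 to 4. The 8 most used held 70.3% ± 1.67 (SD, n = 4). Weighted by usage, the family behaved as 13.2, 12.3, 13.0 and 13.6 equally used segments (inverse Simpson index, 13.0 ± 0.529). The mean level of the most abundant segment above 1 CPM was 11.8 times that of the least abundant, 193 ± 18.1 TPM for Trbv13-2 and 16.4 ± 3.08 TPM for Trbv17.

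**Figure D2:**
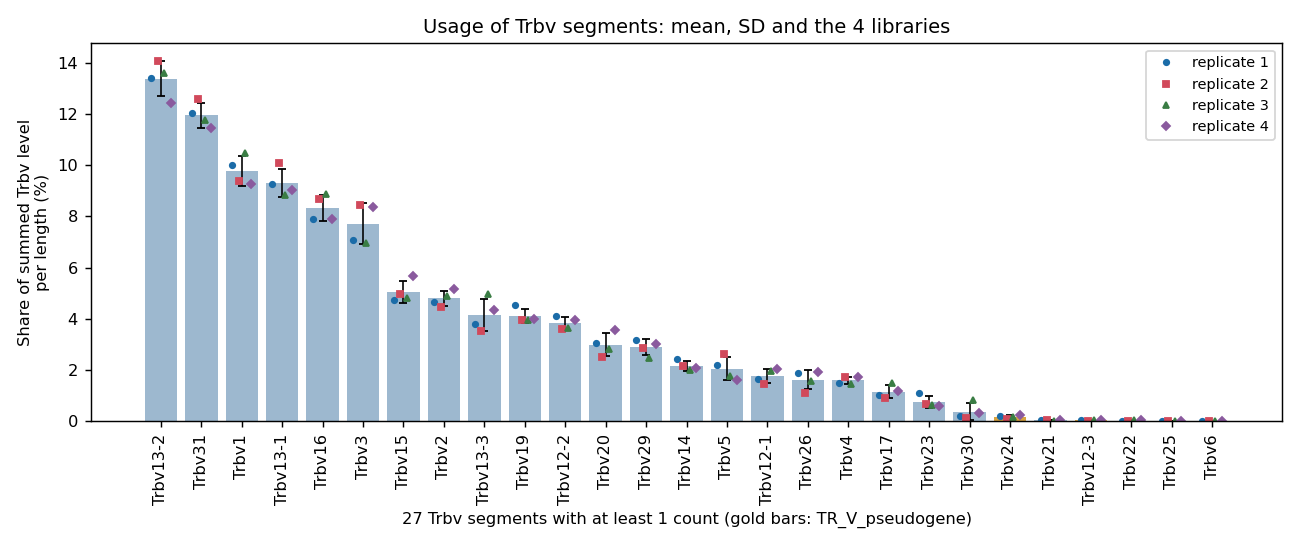
Share of the summed Trbv level per length (%) for the 27 segments with a count, as mean (bars), SD (error bars) and the 4 libraries (points). Trbv13-2, Trbv31 and Trbv1 lead with 13.4%, 11.96% and 9.78%.

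The closest relatives among the segments compared are the members of the Trbv12 and Trbv13 subgroups, which alternate along the chromosome. Because read pairs that map to several places were not counted under the deposited settings, and can so be lost from such copies, their sequences were compared over the last 280 bases. Trbv13-2 and Trbv13-3 shared 91.4% of positions, Trbv12-1 and Trbv12-2 88.9%, Trbv13-1 and Trbv13-2 88.2%, and Trbv13-1 and Trbv13-3 85.4%. The pseudogene Trbv12-3 shared 81.9% with Trbv12-2 and 80.9% with Trbv12-1. No pair of the 435 compared reached 95%, and the median was 53.2%. These pairs cover the 30 segments with at least 280 bases. Trbv6, Trbv11, Trbv25, Trbv27 and Trbv28 are shorter and were not compared. The longest identical run between whole transcripts was 53 bases for Trbv12-2 and Trbv12-3, 50 bases for Trbv13-2 and Trbv13-3, and 44 bases for Trbv12-1 and Trbv12-2. The last 120 bases show how the differences are spread, with capitals where a base differs from the first segment of each set.
Trbv13-2, chr6:41121713-41121832, plus strand: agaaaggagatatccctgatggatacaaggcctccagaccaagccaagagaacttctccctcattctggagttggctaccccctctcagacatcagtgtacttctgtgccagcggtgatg
Trbv13-3, chr6:41130466-41130585, plus strand: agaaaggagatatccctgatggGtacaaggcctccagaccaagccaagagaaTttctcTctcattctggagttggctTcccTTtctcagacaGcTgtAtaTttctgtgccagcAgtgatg
Trbv13-1, chr6:41116349-41116468, plus strand: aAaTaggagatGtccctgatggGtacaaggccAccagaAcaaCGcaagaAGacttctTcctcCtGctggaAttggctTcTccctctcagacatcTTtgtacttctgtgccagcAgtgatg
Trbv12-2, chr6:41119245-41119364, plus strand: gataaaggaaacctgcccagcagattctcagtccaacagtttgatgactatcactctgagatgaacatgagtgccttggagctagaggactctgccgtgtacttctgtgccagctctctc
Trbv12-1, chr6:41113948-41114067, plus strand: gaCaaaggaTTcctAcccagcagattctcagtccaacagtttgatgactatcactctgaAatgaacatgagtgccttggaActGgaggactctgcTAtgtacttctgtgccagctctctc

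Trbv13-3 differed from Trbv13-2 at 11 of these 120 positions and Trbv13-1 at 19, and Trbv12-1 differed from Trbv12-2 at 9. The Trbv13 subgroup held 26.5%, 27.7%, 27.4% and 25.8% of the Trbv level in replicates 1 to 4, and the Trbv12 subgroup 5.82%, 5.04%, 5.63% and 6.05%. Within the Trbv13 subgroup the 3 members were used unequally in every library. Trbv13-1 lay below Trbv13-2 by 0.52 ± 0.07 on the log2(TPM + 0.1) scale, a ratio of 0.695. Trbv13-3 lay further below Trbv13-2, with a log2 difference of -1.70 ± 0.26, a ratio of 0.308 (SD, n = 4). The pair Trbv13-1 over Trbv13-3 gave 1.17 ± 0.30.

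In the Trbv12 subgroup, Trbv12-1 stood against Trbv12-2 at a log2 difference of -1.31, -1.31, -0.88 and -0.96 in replicates 1 to 4, a ratio of 0.462 on average. Trbv2 over Trbv1, consecutive segments at the 5′ end of the locus, gave -1.03 ± 0.12, and Trbv31 over Trbv1, the opposite ends, gave 0.29 ± 0.11. The size for Trbv2 over Trbv1 depended on the length correction, and was -0.60 by CPM. All of these pairs, taken per length, kept 1 sign in 4 of 4 libraries. Each exact sign-flip test, two-sided, gave p = 0.13, the smallest possible with 4 libraries. The 8 fixed pairs therefore could not reach a threshold of 0.05, before or after adjustment.

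Position along the chromosome was described by the distance from each segment to Trbd1, the first of the D segments that V segments join to. Trbv1 lies farthest away, at 641.3 kb, and Trbv30 is the nearest upstream segment, at 251.2 kb. Trbv31 lies at -24.5 kb, that is, beyond Trbd1, downstream of Trbc2 and on the opposite strand, and is known to join by inversion. The other 34 members are on the plus strand. Across the 22 TR_V_gene members, log2(TPM + 0.1) correlated with distance at a Spearman rho of 0.354 and a Pearson r of 0.156, and across all 35 members at 0.095 and 0.0223. Across the 21 TR_V_gene members upstream of Trbd1, a set that was not planned and leaves out only Trbv31, the values were 0.540 and 0.512. Within that set, segments nearer to Trbd1 tended to have lower levels. Trbv31 lay apart from that tendency, and with it included the values were the lower ones given for the 22. These points share the 4 libraries, and the correlations are given as a description.

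By order along the locus, the 12 members farthest upstream held 27.1%, 28.0%, 27.6% and 28.1% of the Trbv level in replicates 1 to 4, with 6 of them above 1 CPM. The next 12, Trbv13-1 to Trbv20, held 54.3%, 54.5%, 54.9% and 54.2%, with 10 above 1 CPM. The last 11, Trbv21 to Trbv31, held 18.6%, 17.5%, 17.5% and 17.6%, with 3 above 1 CPM. Trbv31 alone made up most of that last share. The pseudogenes are spread unevenly, with Trbv6 to Trbv11 among the first 12, and Trbv12-3 and Trbv18 among the next 12. The last 11 hold Trbv22, Trbv24, Trbv25, Trbv27 and Trbv28. Every TR_V_gene of the first 12 and of the next 12 was above 1 CPM. The difference between 6 and 10 above therefore repeats the biotype. The nearest upstream neighbours of Trbd1, Trbv30 and Trbv29, lay far apart in level, at 5.13 ± 4.45 and 41.6 ± 5.30 TPM.

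The spread of each share between libraries was set against counting error. For the 22 segments with at least 30 read pairs in all, the SD of the share of read pairs between libraries was 1.1 to 4.35 times the SD that counting alone gives, with a median of 1.87. Pairs of libraries differed over these segments with chi-square values of 3.33 to 7.86 per degree of freedom, taking read pairs as independent. Among the 19 segments above 1 CPM, the highest library exceeded the lowest by 1.06-fold for Trbv2 to 1.81-fold for Trbv5. Trbv2 stood at 11.3, 11.2, 10.97 and 11.6 CPM, and Trbv5 at 3.46, 4.28, 2.61 and 2.36 CPM, in replicates 1 to 4.

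When each gene's spread between libraries was tested against the trend over all genes (edgeR goodness of fit, Benjamini-Hochberg adjusted over 13279 genes), 0 of the 20 Trbv segments that passed the filter on low counts were called. Over all genes 0.422% were called. None of the 20 had an unadjusted p under 0.05 in that edgeR test, against 770 of 13279 genes (5.8%), a share at which about 1 of 20 would be called. The lowest was 0.0698, for Trbv5. With DESeq2's trended dispersion 0 of 20 were called as well.

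Trbv30 varied most of all segments with at least 30 read pairs, and did not pass that filter. It had 15, 8, 143 and 23 read pairs, or 0.264, 0.177, 1.12 and 0.431 CPM, in replicates 1 to 4. Replicate 3 was thus the highest and 6.31 times replicate 2, the lowest. Replicate 3 is also the deepest library. With all libraries thinned to 45110199 read pairs, Trbv30 kept 12, 8, 56 and 20 read pairs, or 0.266, 0.177, 1.24 and 0.443 CPM, in replicates 1 to 4, with replicate 3 again the highest. The Wilson 95% interval of its share of Trbv read pairs, before thinning, was 0.595% to 0.825% in replicate 3 and 0.0503% to 0.196% in replicate 2. With every gene of at least 1 count included, Trbv30 was not called (adjusted p 0.575, edgeR goodness of fit). Without replicate 4 it passed the filter and was called (adjusted p 0.0299), and without replicate 2 it passed the filter and was not called (adjusted p 0.154). The ratio of Trbv31 over Trbv30 moved accordingly, at 5.99, 6.65, 3.80 and 5.13 on the log2 scale in replicates 1 to 4.

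Trbv23 had the next highest coefficient of variation of these 22, 34.2% in CPM, against 85.9% for Trbv30. It had 94, 46, 113 and 45 read pairs. Its share of Trbv read pairs was 0.958% in replicate 1 (Wilson 95% interval 0.784% to 1.17%), against 0.571%, 0.554% and 0.525% in replicates 2, 3 and 4. These intervals and limits cover counting error only.

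**Figure D3:**
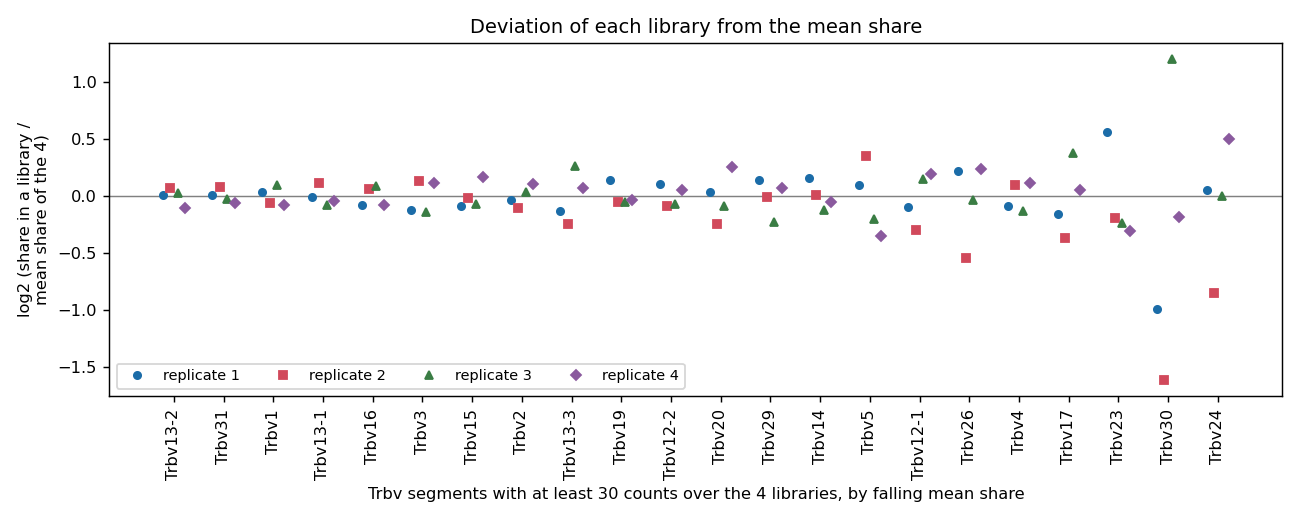
Log2 ratio of each library's share to the mean share of the 4 libraries, for the 22 Trbv segments with at least 30 read pairs, most used first. Most points lie near 0, and Trbv30 spreads widest, with replicate 3 highest and replicate 2 lowest.

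The remaining genes of the locus set the scale for these values. The constant genes Trbc1 and Trbc2 stood at 788 ± 31.3 and 1095 ± 48.6 TPM (SD, n = 4). The summed Trbv level was 0.752, 0.788, 0.769 and 0.748 of the summed Trbc level per length in replicates 1 to 4. Read pairs that overlap several genes were not counted under the deposited settings, so pairs that reach across a V, J and C junction would be absent from all of these, and their part in the ratio was not tested. The D, J and C genes numbered 18, of which 14 were above 1 CPM and 4 undecided, against 48% above among all genes tested. The undecided ones were Trbj1-1, Trbj1-2, Trbj1-4 and Trbj1-7. The J segments together received 0.135, 0.137, 0.145 and 0.153 read pairs per Trbv read pair. The J segments are 46 to 54 bases long, and Trbd1 and Trbd2 are 12 and 14 bases long, so their levels per length rest on few positions. The most counted was Trbj2-7, with 3.22 ± 0.623 CPM.

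Between the first and last Trbv segments lie 28 other genes, among them the trypsinogen genes, which encode digestive proteases of the pancreas. None was above 1 CPM, 7 were below, 1 was undecided, and 20 had no count and so were not tested. Of the 23365 genes tested, all with a count, 48% were above and 48.5% below. Of all 50600 genes in each file, counted or not, 11225 were above. The undecided gene was the noncoding 5830405F06Rik, at 0.970 ± 0.202 CPM, and the highest trypsinogen gene was Prss2, at 0.132 ± 0.0763 CPM. Together the 28 genes summed to 0.918 to 1.42 CPM, against 160 to 179 CPM for the Trbv segments among which they lie.

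Most of the genes listed for V(D)J recombination were present, and the lymphocyte-specific ones were at or near 0. Of 16 genes listed for V(D)J joining, 12 were above 1 CPM, 2 were below and 2 had no count. Among all genes tested, which leave out genes without a count, 48% were above and 48.5% below. Of all 50600 genes in each file, 11225 were above. The listed genes without a count were Rag1 and Rag2, which encode the recombinase that cuts at the segments. Dntt, which adds bases at the junctions, had 9, 0, 8 and 10 read pairs, and Ptcra, the partner of the beta chain in immature thymocytes, had 0, 0, 1 and 3. Of the DNA-end joining factors, Xrcc6 stood at 126 ± 4.47, Xrcc5 at 110 ± 3.25, Prkdc at 62.9 ± 4.06 and Lig4 at 16.4 ± 0.457 CPM. Hmgb2, a chromatin protein that assists cutting, was the highest of the list at 397 ± 18.0 CPM. All 7 genes of the assembled receptor were above 1 CPM, among them Trac at 414 ± 10.2 CPM and the signalling chain Cd3e at 270 ± 4.25 CPM.

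The alpha chain family, Trav, has 128 annotated members, many of them near-identical copies. Their read pairs can be lost, as pairs that map to several places were not counted. The summed level was higher for Trbv than for Trav in 4 of 4 libraries, with Trbv at 1469, 1527, 1390 and 1374 TPM and Trav at 652.5, 696, 666.1 and 636.7 TPM in replicates 1 to 4. The Trbv level was spread over fewer segments than the Trav level. The effective number was 13.0 ± 0.529 for Trbv and 37.8 ± 0.968 for Trav, a difference of -24.8 ± 1.47 (SD, n = 4). It was lower for Trbv in 4 of 4 libraries (exact sign-flip test, two-sided, p = 0.13, the smallest possible). An effective number cannot exceed the number of members, which is 35 for Trbv. Trav had 37.7, 38.6, 38.3 and 36.4 in replicates 1 to 4. Beside these values Trbv would be lower even if all its segments were used equally. The test therefore cannot compare how evenly the families were used. The most used segment of each library, which was not always the same one for Trav, held on average 13.4% ± 0.678 of the Trbv level and 5.90% ± 0.422 of the Trav level.

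The 3 Trav segments highest per length were Trav14n-3 at 37.3 ± 3.13 TPM, Trav4-4-dv10 at 34.7 ± 5.40 TPM and Trav14-2 at 30.6 ± 5.11 TPM. Of the Trbv segments 19 of 27 tested were above 1 CPM, and of the Trav segments 22 of 81, against 48% of all genes tested. For spread between libraries, 0 of 20 Trbv and 1 of 52 Trav segments were called, against 0.422% of all genes tested. The called segment was Trav7-1, with 85, 58, 48 and 19 read pairs in replicates 1 to 4 (adjusted p 0.0253, edgeR goodness of fit). That call was lost without replicate 1, without replicate 3 and without replicate 4, with every gene of at least 1 count included, and with DESeq2's trended dispersion. At an unadjusted p under 0.05 there were 0 of 20 Trbv and 7 of 52 Trav segments in that edgeR test, against 5.8% of all genes. These family sizes and their annotation differ, and the part of read pairs lost to near-identical Trav copies was not tested.

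**Figure D4:**
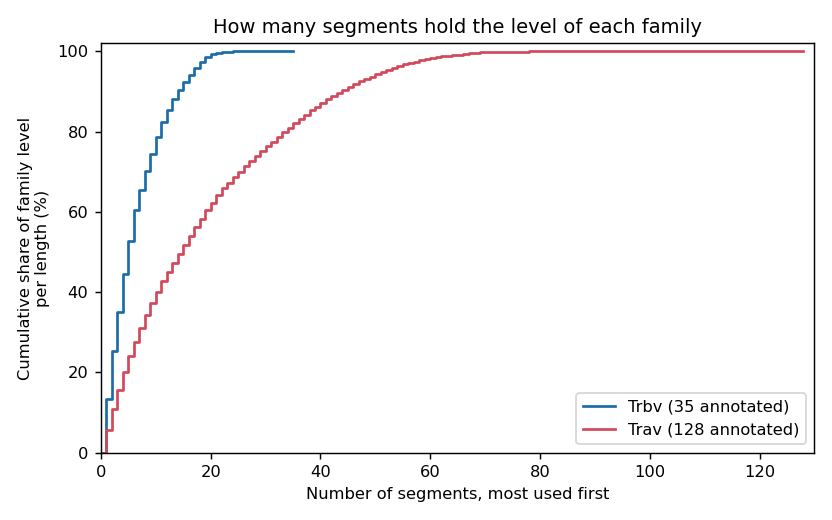
Cumulative share of each family's level per length (%) over its segments, most used first, from mean shares over the 4 libraries. The Trbv curve passes 50% at 5 segments, and the Trav curve rises more slowly.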

How the data were processed

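The 4 libraries are labelled as biological replicates of 1 group and carry the same donor entry. Per the file headers, the authors counted read pairs (raw counts, as deposited) with featureCounts 1.4.6-p4 on STAR alignments over GENCODE M13 exons, with both ends mapped and strand option 2; the labels name mm10. The command in the headers has no option to count multi-mapping or multi-overlapping pairs. The exon length in the files was used for TPM. Symbols, biotypes and sequences came from GENCODE M21; all 35 members have the same ID version in both releases.

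Levels were tested against 1 CPM with edgeR 4.0.16 (quasi-likelihood, intercept only, one-sided each way) over genes with at least 1 count, and spread between libraries by edgeR goodness of fit at the trended dispersion after TMM and filterByExpr, with an adjusted p below 0.05. The pseudocount was 0.1 TPM. limma 3.58.1 and DESeq2 1.42.0 were alternatives. The tests were checked on simulated data. Members and lists were chosen with earlier results of these data known; every Trbv segment, the genes between them and fixed lists were eligible to be named. Recombination signals and promoters were not analysed here. One further marker list is not reported here.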

Additional observations from a re-analysis of the deposited data

Results flagged for a closer look

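The share of the Trbv level held by the 11 segments nearest the 3′ end of the locus, Trbv21 to Trbv31, was 18.6% in replicate 1, against 17.5%, 17.5% and 17.6% in replicates 2, 3 and 4. The gap between replicate 1 and the nearest other library was 0.879 of the whole range, above the critical value of Dixon's test at 95% for 4 samples. Chance gives such a gap in about 1 in 20 groups, and 43 quantities were examined.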

How the results depend on the processing

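No paired analysis was possible because the labels give a single group. The 19 Trbv segments above 1 CPM numbered 19 without any single replicate too; the number below was 5 to 7 without 1 replicate (5 without replicate 3) and 0 with filterByExpr, which removes the 7 low segments before the test. That filter left 1071 of all genes and 11 Trav segments below 1 CPM, against 11337 and 43. At a threshold of 2 CPM, 7 Trav segments were above. Genes whose spread was called numbered 33 to 40 without 1 replicate, against 56; Trbv segments 0 to 1 (Trbv30, without replicate 4) and Trav segments 0 to 1 (0 without replicate 1, 3 or 4). The called Trav segment gave 0 with every gene of at least 1 count and 0 with DESeq2's trended dispersion. Trbv31 held 12.5% by read pairs and 12.9% with the annotated coding length, against 11.96%, and under both it passed Trbv13-2, at 11.4% and 11.5%. Summing the Trbv12 and Trbv13 subgroups, an alternative chosen after seeing the data, gave an effective number of 8.20, against 13.0. No segments among the 30 compared reached 95% identity, so summing at that level changed nothing. The other 164 of 180 comparisons of a main result with an alternative stayed within the limits used, and no fixed pair changed sign. Those limits allowed sizeable shifts. Trbv2 over Trbv1 was -0.60 by CPM, against -1.03, and counted as within them. So did the genes below 1 CPM, at 9427 without replicate 3, against 11337. For the shares of segments other than Trbv31, a further 14 comparisons moved and 194 did not. The 14 were by read pairs or annotated coding length, for Trbv13-2, Trbv13-1, Trbv3, Trbv2, Trbv19, Trbv12-2, Trbv20 and Trbv29. By either measure, Trbv2 and Trbv19 passed Trbv15, and Trbv3 passed Trbv16. Depth limits the segments under 3 counts in a library.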
